A study of Mus musculus with 12 samples.

Results

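Crystallins were followed in 12 RNA-seq libraries from retinas of 2-month-old mice, in which 9 alpha, beta and gamma crystallin genes stood out for how far their levels differed between libraries of a single group. The 9 genes are Cryaa and Cryab (alpha), Cryba1, Cryba2, Cryba4, Crybb1, Crybb2 and Crybb3 (beta) and Crygs (gamma). They were chosen by symbol out of 56748 entries of a table of scaled counts, with their levels in these libraries already known, so that the levels and their spread are given as a description. Groups consisted of 3 libraries each: Abca4Ko rod TRAP, control rod TRAP, Abca4Ko retina and control retina. The Abca4Ko libraries were labelled Abca4-/-, a loss of the flippase that clears retinaldehyde from rod discs, and the controls Abca4+/+. Mice of both genotypes carried the RiboTag allele, which tags a ribosomal protein wherever Cre acts, and a rhodopsin-Cre transgene that is active in rods. All mice were perfused with cycloheximide so that ribosomes stayed on the messages, and the tissue was flash frozen. The rod TRAP libraries hold RNA bound to the tagged ribosomes (translating ribosome affinity purification), and the retina libraries hold RNA of the lysate before the pull-down. Neither the labels nor the methods say whether retinas were pooled, so the p-values measure the spread between these libraries.

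Crystallins are the soluble proteins that fill the fiber cells of the lens and give it its refractive index. The alpha crystallins are small heat shock proteins that keep other proteins from aggregating, while the beta and gamma crystallins share a fold of Greek key motifs and serve mainly as structural proteins. The lens lies in front of the retina and makes by far the most crystallin message of the eye, so small amounts of lens can add crystallin reads to a retina library. Cryab is also made outside the lens, in muscle, glia and other cells under stress, and crystallin messages have been described in retina as well.

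The libraries themselves were checked first. Scaled counts, which the authors made by bringing the counts of every library of a fraction to a common total, summed to between 17096515 and 17097707 in rod TRAP and between 17860761 and 17862326 in retina, so that these totals do not show the depth of a library. TPM, a second deposited measure, corrects for gene length and allows levels of different genes to be compared. The rod list of 10 genes rose in rod TRAP in all 10 cases in either genotype (limma, adjusted p between 4.56e-10 and 0.00664), and the Müller glia list of 10 genes fell in all 10 cases, although Sox9 passed the filter through retina alone. Of all genes tested, 5873 of 16286 rose in control mice and 4559 of 16036 in Abca4Ko mice at an adjusted p under 0.05 in limma. Those that fell made up 39.3% and 35.0%. Abca4 had scaled counts of 195, 365 and 13156 in the Abca4Ko rod TRAP libraries 1 to 3 and of 61017, 53193 and 53533 in the controls, and of 153, 366 and 8124 against 38929, 37619 and 38090 in retina. The libraries labelled Abca4Ko replicate 3 therefore went against their label, with 23.5% of the control mean of Abca4 in rod TRAP and 21.3% in retina, against at most 0.958% in the other libraries labelled Abca4Ko, and 1 of the 3 retinas with much crystallin message was of this replicate.

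To show what the crystallin genes have in common upstream, RefSeq promoters (build GRCm38.p6, from 250 bases before to 50 bases after the start of transcription) were read for 8 of the 9 genes. Cryab was not among them. The following 4 strings were searched on both strands: TGCTGA, the core of the sequence bound by the large Maf factors of the lens, the TATA box TATAAA, GAANNTTC, which stands for a pair of heat shock units, and the AP-1 site TGACTCA. One promoter of each class is printed 5′ to 3′ with the matches in capitals. The beta class is shown with Cryba1, which holds the Maf string, and with Crybb2, the only one of the 8 without it.
Cryaa (chr17:31677681-31677980, plus strand): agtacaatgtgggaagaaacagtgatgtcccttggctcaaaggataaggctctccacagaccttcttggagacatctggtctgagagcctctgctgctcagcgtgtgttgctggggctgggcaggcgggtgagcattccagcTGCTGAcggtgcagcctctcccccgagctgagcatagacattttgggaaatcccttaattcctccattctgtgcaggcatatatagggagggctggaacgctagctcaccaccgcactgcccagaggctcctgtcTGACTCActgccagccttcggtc
Cryba1 (chr11:77725244-77725543, minus strand): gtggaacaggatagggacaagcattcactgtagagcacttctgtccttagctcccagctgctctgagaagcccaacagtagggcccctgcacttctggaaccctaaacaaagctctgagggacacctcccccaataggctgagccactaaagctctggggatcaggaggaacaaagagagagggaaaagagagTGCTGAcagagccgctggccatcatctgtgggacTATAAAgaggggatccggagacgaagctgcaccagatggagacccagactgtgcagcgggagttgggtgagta
Crybb2 (chr5:113070068-113070367, minus strand): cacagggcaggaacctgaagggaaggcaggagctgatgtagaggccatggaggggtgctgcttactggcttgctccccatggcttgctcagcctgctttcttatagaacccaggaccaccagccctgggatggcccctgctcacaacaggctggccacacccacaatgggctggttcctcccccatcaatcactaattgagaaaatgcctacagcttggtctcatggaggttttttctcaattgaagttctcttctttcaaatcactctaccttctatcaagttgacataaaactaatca
Crygs (chr16:22811361-22811660, minus strand): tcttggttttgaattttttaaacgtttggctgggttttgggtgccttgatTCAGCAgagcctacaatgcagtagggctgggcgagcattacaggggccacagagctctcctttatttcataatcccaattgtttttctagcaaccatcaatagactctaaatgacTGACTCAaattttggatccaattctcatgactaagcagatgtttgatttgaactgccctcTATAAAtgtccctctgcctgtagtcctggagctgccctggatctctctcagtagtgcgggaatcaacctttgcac

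The string TGCTGA was present in 7 of the 8 crystallin promoters, while 19.1% of all 27025 promoters in the table held it. In Cryaa it began 108 bases before the start, in Cryba1 57 bases before it, and in Crygs, on the other strand, 200 bases before it. TATAAA was found in Cryba1, Cryba2, Crybb1 and Crygs, 4 of 8 against 14.2% of all promoters. TGACTCA was found in Cryaa, Cryba2 and Crygs, 3 of 8 against 5.17%. None of the 8 held GAANNTTC, which occurred in 7.95% of promoters, and the promoter of Cryab was not read. None of the matches overlapped another. These are matches of letters, given as a description, and no binding was measured. In the RefSeq gene order, Cryba4 and Crybb1 are neighbours on chromosome 5, as are Crybb2 and Crybb3, and Cryab on chromosome 9 lies next to Hspb2, another small heat shock protein gene.

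In whole retina the crystallins as a group took either over 1% of all TPM or far less, depending on the library and not along the line of genotype. The 9 genes together took 0.0124%, 1.20% and 1.74% of all TPM in Abca4Ko retina 1 to 3, and 3.58%, 0.0193% and 0.0315% in control retina 1 to 3. In control retina 1, 7 of the 9 were among the 100 most abundant genes, against 4 in Abca4Ko retina 2, 5 in Abca4Ko retina 3 and 0 in the remaining retinas. Crybb2 and Cryaa were the genes at rank 5 and 6 of control retina 1, whereas in Abca4Ko retina 1 they lay at rank 7857 and 10568. The 3 retinas with much crystallin message, here called crystallin-rich, thus came from both genotypes, 1 control and 2 labelled Abca4Ko.

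**Figure D1:**
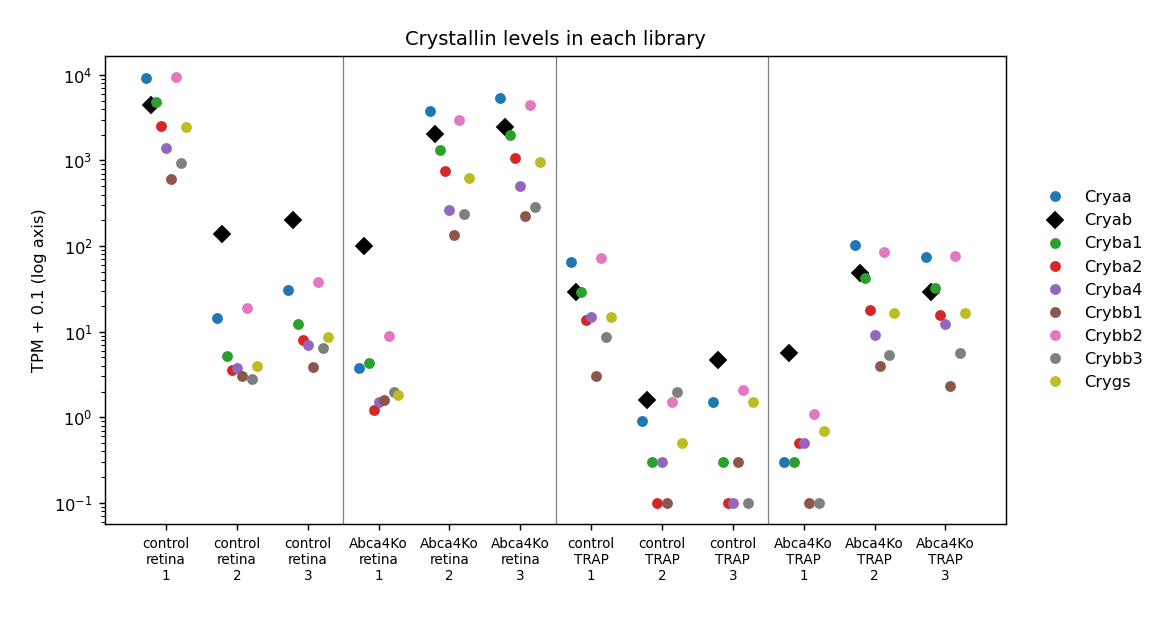
TPM of the 9 crystallins in each of the 12 libraries, plotted as TPM + 0.1 on a log axis, with one point per gene and library and Cryab as a black diamond. Control retina 1 and Abca4Ko retina 2 and 3 sit far above the other retinas, their rod TRAP counterparts repeat the pattern at a lower level, and Cryab stays near 100 TPM or above in every retina (lowest 99.5).

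Cryaa, the alpha crystallin that is largely restricted to the lens, had scaled counts of 48, 40408 and 55271 in Abca4Ko retina 1 to 3 and of 104841, 146 and 340 in control retina 1 to 3. In TPM these were 3.7, 3748 and 5372.3 against 9306, 14.2 and 30.2. The highest library thus held 2184 times the scaled count of the lowest one, the widest range among the 9 genes. In rod TRAP, Cryaa had 2, 848 and 619 scaled counts in Abca4Ko mice against 547, 6 and 13 in controls, with the same libraries high and low as in retina.

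The basic beta crystallins behaved alike. Crybb2, a major crystallin of the adult lens, had scaled counts of 60, 19977 and 29046 in Abca4Ko retina and of 66943, 117 and 272 in control retina, and of 7, 458 and 395 against 396, 6 and 13 in rod TRAP. Crybb1, a crystallin of the fiber cells, had 15, 1047 and 1663 in Abca4Ko retina against 4874, 22 and 30 in control retina, and 0, 26 and 13 against 18, 0 and 1 in rod TRAP. Crybb3 had 15, 1399 and 1689 against 5993, 19 and 42 in retina, and 0, 30 and 25 against 47, 3 and 0 in rod TRAP. For each of them control retina 1 was the highest and Abca4Ko retina 1 the lowest library of the retina fraction.

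The acidic beta crystallins repeated this order. Cryba1, which encodes the beta A3 and beta A1 proteins, had scaled counts of 30, 8641 and 12288 in Abca4Ko retina and of 32820, 32 and 85 in control retina, and of 1, 216 and 165 against 152, 1 and 1 in rod TRAP. Cryba2 had 8, 4478 and 5920 against 15488, 21 and 49 in retina, and 2, 83 and 71 against 62, 1 and 0 in rod TRAP. Cryba4 had 10, 1841 and 3300 against 10123, 25 and 47 in retina, and 2, 49 and 62 against 78, 1 and 0 in rod TRAP. Again control retina 1 was highest and Abca4Ko retina 1 lowest. Crygs, the gamma crystallin that continues to be made in the adult lens, had 15, 4797 and 7058 against 19787, 28 and 69 in retina and 4, 100 and 97 against 89, 2 and 8 in rod TRAP.

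Cryab differed from the other members in the retinas where little crystallin message was found. Its scaled counts were 871, 14755 and 16978 in Abca4Ko retina and 33720, 992 and 1595 in control retina, which corresponds to 99.5, 2015 and 2483.8 TPM against 4454.4, 138.2 and 200.7 TPM. The highest retina held 38.7 times the lowest, against 325 to 2184 times for the other 8 genes. Abca4Ko retina 1 and control retina 2 and 3 thus kept 2.58%, 2.94% and 4.73% of the Cryab count of control retina 1, while the other 8 members kept between 0.0458% and 0.701% there. In these 3 libraries Cryab ranked 1252, 1092 and 716 among all genes by TPM, while the other alpha crystallin, Cryaa, ranked 10568, 7593 and 4248.

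Set against Cryaa within the same library, which does not depend on how libraries were scaled, the TPM of Cryab came to 0.538 and 0.462 of that of Cryaa in Abca4Ko retina 2 and 3 and to 0.479 in control retina 1. The ratio was 26.9 in Abca4Ko retina 1, 9.73 in control retina 2 and 6.65 in control retina 3. The order of both alpha crystallins was therefore turned around between these libraries. In rod TRAP, Cryab amounted to 0.475, 0.384 and 0.444 of Cryaa in Abca4Ko 2, Abca4Ko 3 and control 1, close to the ratios in their retinas, whereas few counts stood behind the 27.5, 1.88 and 3.29 of Abca4Ko 1, control 2 and control 3.

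The other members kept more even proportions to Cryaa, though not exact ones. Crybb2 was at 0.788, 0.832 and 1.00 of Cryaa in Abca4Ko retina 2 and 3 and control retina 1, and at 2.35, 1.32 and 1.26 in Abca4Ko retina 1 and control retina 2 and 3. Cryba1 was at 0.349, 0.368 and 0.513 in the first 3 and at 1.14, 0.359 and 0.407 in the others, and Cryba2 at 0.202, 0.198 and 0.271 and at 0.297, 0.246 and 0.262. Control retina 2 and 3 thus lay within the range of the 3 crystallin-rich retinas for Cryba1 and Cryba2. For Crybb1 the ratio was 0.0361, 0.0422 and 0.0646 in the first 3 libraries and 0.405, 0.204 and 0.126 in the others, at scaled counts of 15 to 30 in the latter. All 7 beta and gamma members had a higher ratio to Cryaa in Abca4Ko retina 1 than in any of the crystallin-rich retinas, with 48 scaled counts of Cryaa behind it.

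**Figure D2:**
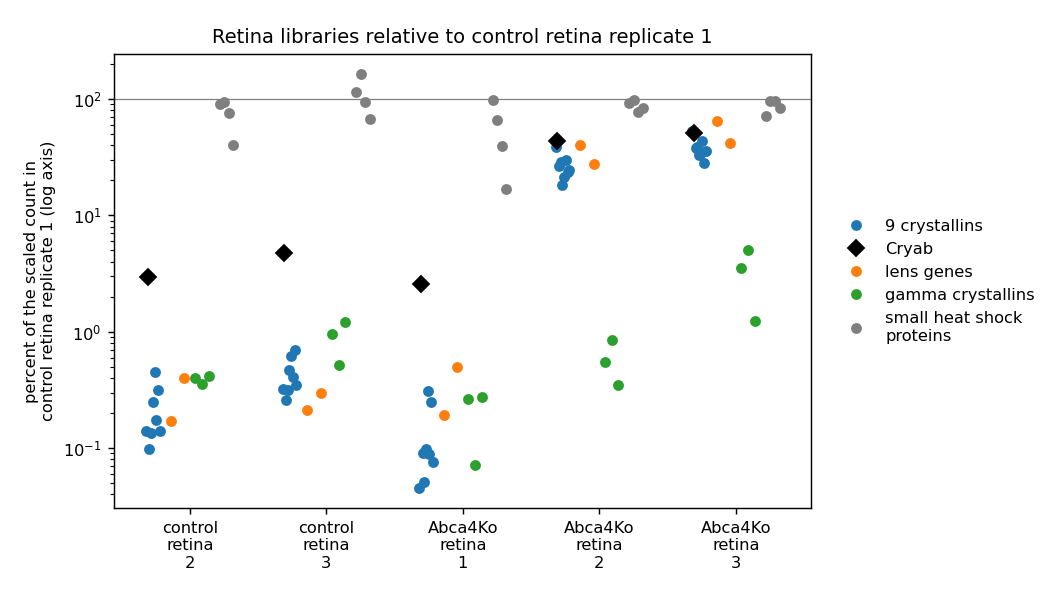
Scaled counts in 5 retina libraries as a percent of control retina 1, on a log axis, for the 9 crystallins (Cryab as a black diamond), for Mip and Grifin of the lens list, for Crygb, Crygc and Crygd and for 4 small heat shock protein genes. Each point is one gene, and the line marks 100%. Cryab lies at 2.58% to 4.73% in control retina 2 and 3 and Abca4Ko retina 1, above the other crystallins of these libraries, and the 3 gamma crystallins lie below the 9 members in Abca4Ko retina 2 and 3.

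Markers of lens were measured in the same libraries. The list of 13 lens genes that are no crystallins summed to 2.3, 204.6 and 356.2 TPM in Abca4Ko retina and to 744.8, 6.2 and 7.6 TPM in control retina, which is the order of libraries seen for Cryaa. Mip, the water channel of lens fibers and the most abundant gene of the list, had scaled counts of 9, 1868 and 3051 against 4705, 8 and 10, and Grifin, a lens galectin, had 5, 274 and 421 against 1004, 4 and 3. Of the genes that define lens, Mip was listed at 0 TPM in control retina 2 and 3, and Gja3 at 0 TPM in Abca4Ko retina 1 and control retina 2, though no retina was without any scaled count of the list (lowest sum 24). Bfsp2, also on the list, had 0 scaled counts in Abca4Ko retina 1 but 42 and 80 in control retina 2 and 3. The latter were 3.90% and 7.42% of its count in control retina 1, against 2.94% and 4.73% for Cryab. Mip and Grifin kept at most 0.498% in these 3 retinas. In rod TRAP the list summed to 0, 5.2 and 3.5 TPM in Abca4Ko and to 8.5, 1.6 and 0.6 TPM in control. None of these genes was called between genotypes or between fractions (9 tested in retina, 1 in rod TRAP, 3 and 2 between fractions in control and Abca4Ko mice). The part of lens in the crystallin levels was not tested.

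Other tissues of the eye gave a mixed picture. The cornea list of 6 genes summed to 0.7, 20.2 and 16.4 TPM in Abca4Ko retina and to 16.3, 1.7 and 2.5 TPM in control retina, with Aldh3a1, an aldehyde dehydrogenase abundant in cornea, at 19.3, 15.9 and 15.1 TPM in the crystallin-rich Abca4Ko retina 2 and 3 and control retina 1 and at most 1.0 TPM in the others, whereas the corneal keratin Krt12 reached at most 0.7 TPM in any library. The pigment epithelium list of 8 genes, by contrast, summed to 98, 192.2 and 132.1 TPM against 155.7, 232.6 and 296.9 TPM, lowest in Abca4Ko retina 1 and highest in control retina 3. Across Abca4Ko retina 1 and control retina 2 and 3, where Cryab stood at 99.5, 138.2 and 200.7 TPM, this sum had the same order, which came from the pigment genes Mlana (0.8, 45.2 and 112.3 TPM) and Tyrp1 (1.0, 34.2 and 78.8 TPM), while Rpe65, the retinoid isomerase of the pigment epithelium, had 7.0, 6.1 and 2.7 TPM in the opposite order. The sums of the Müller glia list (2884.3, 5265.3 and 5341.7 TPM), the bipolar list (512.9, 1080.9 and 1146 TPM), the microglia list (20, 36.4 and 43.9 TPM) and the macroglial reactivity list (73.3, 112.5 and 116.2 TPM) had the order of Cryab as well. So did the lens list (2.3, 6.2 and 7.6 TPM), the cornea list and Cryaa (3.7, 14.2 and 30.2 TPM). The amacrine (628.2, 1203.9 and 1137 TPM), ganglion (615.8, 983.5 and 952.6 TPM), horizontal, vascular (24, 68.5 and 49.4 TPM), blood (602.8, 541 and 1195.3 TPM) and rod lists did not. The part of any of these cell types in Cryab was not tested, and in bulk samples more cells of a type and more RNA per cell cannot be told apart.

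The gamma A to F crystallins, which are made mainly in young fiber cells, did not share the pattern of the 9 members. Crygb had scaled counts of 12, 25 and 160 in Abca4Ko retina and of 4524, 18 and 43 in control retina, Crygc had 3, 36 and 212 against 4216, 15 and 22, and Crygd had 8, 10 and 36 against 2892, 12 and 35. Their 6 genes together amounted to 4.0% of the scaled counts of the 9 members in control retina 1, but to 0.075% and 0.306% in Abca4Ko retina 2 and 3. In the libraries with little crystallin message this share was again higher, with 2.15% in Abca4Ko retina 1, 3.28% in control retina 2 and 4.03% in control retina 3. The lens genes that are no crystallins stood at 2.24% to 5.63% of the members in all 6 retinas, without Lim2. Lim2 has 0 scaled counts in every library although its TPM reached 124.2 in control retina 1, so that the 2 deposited tables differ for this gene. Cryab made up 871 of 1072, 992 of 1402 and 1595 of 2529 member counts in Abca4Ko retina 1 and control retina 2 and 3. In control retina 1 it made up 33720 of 294589. Cryab thus lowered both shares in the libraries with little crystallin message, and the evenness of the lens share depends on counting it. Of the gamma A to F genes, 3 were tested in retina between genotypes and between fractions in control mice without a call, and in Abca4Ko mice only Crygb was tested, which passed the filter through its retina libraries alone and is therefore given by its counts (0, 2 and 6 in rod TRAP). The 3 crystallin-rich retinas therefore differed in which crystallins they held, and Crygs kept with the beta crystallins and not with the other gamma crystallins.

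Spread between libraries of one group placed the members at the top of the table. On the log2(CPM + 0.5) scale, the SD within groups was 5.30 for Cryaa in retina, the largest of 16964 genes tested, and Cryba1, Crybb2, Cryba2 and Crygs followed at rank 2, 3, 4 and 5. Cryba4, Crybb3 and Crybb1 were at rank 7, 8 and 9, with SDs of 4.23, 3.79 and 3.67, and Cryab was at rank 21 with 2.54, while the median gene had 0.270. In rod TRAP the SD of Cryaa was 3.34, again the largest of 13104 genes, and that of Cryab was 1.60 at rank 9, against a median of 0.168.

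The genes whose retina pattern was most like that of the members were found by Pearson's r of log2(CPM + 0.5) over the 6 retina libraries, among 15295 genes with a mean of at least 1 CPM. Rspo1, a secreted activator of Wnt signalling, was first or second for all 9 members (r between 0.995 and 1.00), and Wnt7b, a Wnt ligand, was among the first 3 for 6 of them. Gja3, the connexin 46 gene of lens fibers, was among the first 3 for Cryab, Cryba1, Cryba2 and Crygs, and Fgfr3, a fibroblast growth factor receptor, for Cryaa, Cryba4 and Crybb2. Between members, r lay between 0.986 and 1.00, Cryab included. With 6 libraries of which 3 are high, r is set mostly by the step between these libraries, and it is given as a description.

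Whether the loss of Abca4 changed crystallin levels was asked in each fraction with limma, a linear model across all genes, on log2(CPM + 0.5). In retina, none of the 9 members passed an adjusted p of 0.05, where 0.112% of 16964 genes did so in either direction. Log2 fold changes of Abca4Ko against control ran from 0.69 (SE 2.01, adjusted p = 0.891, limma) for Cryab to 1.67 (SE 3.93, adjusted p = 0.863) for Cryba1, with 1.5 (SE 4.25, adjusted p = 0.888) for Cryaa. The groups overlapped for every member, and the error was larger than the fold change in each case. The direction is not settled by these values: the mean scaled count of Abca4Ko retina was below that of control retina for each of the 9 members (Cryaa 31909 against 35109, Cryba1 6986 against 10979), while the fold changes on the log2 scale were positive, and leaving out 1 library turned the sign of each (Cryba1 from -0.18 to 4.71). Without the 6 libraries that held most lens message, an alternative chosen after seeing values that the members track, 1 library was set against 2, and Cryaa came to -1.86 on the log2 scale, from 48 scaled counts against 146 and 340. In that fit 3.31% of 15492 genes passed, and no call is taken from it.

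In rod TRAP, none of the 9 passed either, where 1.12% of 13104 genes did. Log2 fold changes ran from 0.32 (SE 0.92) for Crybb3 to 1.66 (SE 2.56) for Cryaa, with limma adjusted p between 0.752 and 0.934, and Cryab came to 1.46 (SE 1.19, adjusted p = 0.752). All 9 passed the filter on low values, but 6 of them (Cryba1, Cryba2, Cryba4, Crybb1, Crybb3 and Crygs) passed through Abca4Ko 2 and 3 and control 1 alone, with fewer than 10 scaled counts in the other libraries. Among the unadjusted tests, 1369 genes of rod TRAP and 2023 of retina had p under 0.05, and no member was among them. The interaction of genotype and fraction, fitted to all 12 libraries, called no member either, where 0.00579% of 17273 genes were called, and had adjusted p between 0.915 and 1.00 for the members. These results rest on 3 libraries a group. Standard errors reached 4.25 between genotypes and were as large as 5.06 in the interaction (Cryaa), and a difference within those errors could not be detected.

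**Figure D3:**
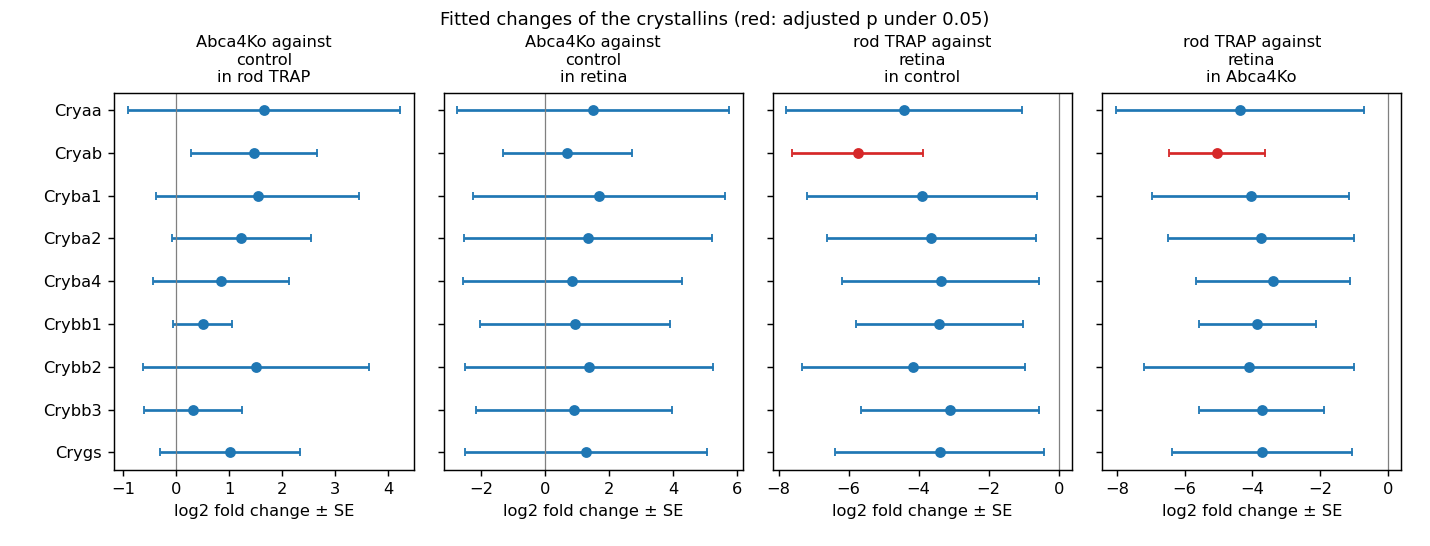
Log2 fold changes of the 9 crystallins with their standard errors (bars) in the 4 comparisons, each fitted to 3 against 3 libraries, with red for an adjusted p under 0.05. In both genotype comparisons the points lie at 0.32 to 1.67 with standard errors up to 4.25, and in both fraction comparisons Cryab alone is red, at -5.74 in control and -5.05 in Abca4Ko.

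Rod TRAP was then compared with retina, which asks whether crystallin messages were bound to the ribosomes of rods. Each of the 9 genes had a lower scaled count in rod TRAP than in the retina of the same number, in both genotypes and all 3 replicates. In control mice, Cryab had 161, 8 and 27 scaled counts in rod TRAP against 33720, 992 and 1595 in retina, and in Abca4Ko mice 35, 273 and 161 against 871, 14755 and 16978. The fractions did not overlap for Cryab in either genotype, and for Crybb1 they did not overlap in control mice. For all other members, rod TRAP of the crystallin-rich replicates held more than the retina of another replicate.

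Cryab was the 1 member called lower in rod TRAP in control mice, where 39.3% of 16286 genes were called lower, at -5.74 on the log2 scale (SE 1.87, adjusted p = 0.0469 in limma). The other 8 had log2 fold changes between -4.42 (SE 3.36) for Cryaa and -3.10 (SE 2.55) for Crybb3 and adjusted p between 0.261 and 0.355. The median of the members was -3.64, against -0.05 for all genes tested. The call of Cryab was lost with a pseudocount of 2 CPM (adjusted p = 0.0525) and without a filter on low values (adjusted p = 0.0637), and in 5 of the 6 fits that left out 1 library, with adjusted p up to 0.135 without control rod TRAP 2. Without control retina 1 and control rod TRAP 1, left out after seeing values that the members track, 3 members passed the filter, with log2 fold changes of -5.26 for Cryab, -3.31 for Cryaa and -3.00 for Crybb2. In that fit 26.9% of 13133 genes were lower, and no call is taken from it.

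In Abca4Ko mice Cryab was again the 1 member called lower, at -5.05 on the log2 scale (SE 1.42, adjusted p = 0.0298 in limma), where 35.0% of 16036 genes were called lower. The median of the 9 was -3.85. Here the numbers of the libraries were taken to pair both fractions, and with the replicate as a block, 6 members were called lower, with 38.1% of genes called lower in that fit. Cryaa then had -4.37 (SE 0.89, limma adjusted p = 0.0220), Crybb3 -3.72 (SE 0.80, adjusted p = 0.0106) and Crybb1 -3.85 (SE 0.89, adjusted p = 0.0152), and Cryab, Cryba1 and Crybb2 were called as well. The call of Cryab was lost without both libraries labelled Abca4Ko replicate 3 (adjusted p = 0.262), on log2(TPM + 1) (adjusted p = 0.0643), without a filter (adjusted p = 0.0583) and in 5 of the 6 fits that left out 1 library (adjusted p between 0.0508 and 0.110). Without Abca4Ko retina 1, 8 members were called, all but Cryaa, where 27.3% of 13417 genes were called lower. For all members but Cryba2 in Abca4Ko mice, the 3 retinas of a genotype were enough to pass the filter on low values, so the number of members called between fractions is given as a description.

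Within a pair of same-numbered libraries, the level in rod TRAP as a share of that in retina varied by less than 3-fold between members where retina held much crystallin message. In TPM this share ran from 2.24% to 3.43% in Abca4Ko 2, from 0.970% to 2.41% in Abca4Ko 3 and from 0.482% to 1.04% in control 1. Cryab lay inside these ranges at 2.40%, 1.16% and 0.653%. The median share of the 10 Müller glia genes was 2.54%, 2.47% and 3.17% in the same pairs and that of the 8 ganglion cell genes 2.02%, 1.69% and 1.83%, while the median of the 10 rod genes was 215%, 246% and 194%. The amacrine medians were 2.72%, 2.21% and 2.20%, and the bipolar medians 1.25%, 0.863% and 2.08%. In the Abca4Ko pairs, crystallin messages were thus found in rod TRAP at about the share of Müller glia, ganglion and amacrine messages. They lay above the bipolar median there. In the control pair they lay below the medians of all these lists, and the differences were not tested.

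In the other 3 pairs, the counts in rod TRAP were small. The 9 members together had 53 scaled counts in Abca4Ko rod TRAP 1, 28 in control rod TRAP 2 and 63 in control rod TRAP 3, against 2083, 1608 and 1550 in Abca4Ko 2, Abca4Ko 3 and control 1. Cryab made up 35, 8 and 27 of them and came to 5.53%, 1.09% and 2.29% of the TPM in the same-numbered retina. For Cryba2, Cryba4, Crybb1 and Crybb3, with at most 3 scaled counts in these libraries, a share cannot be given with any precision.

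**Figure D4:**
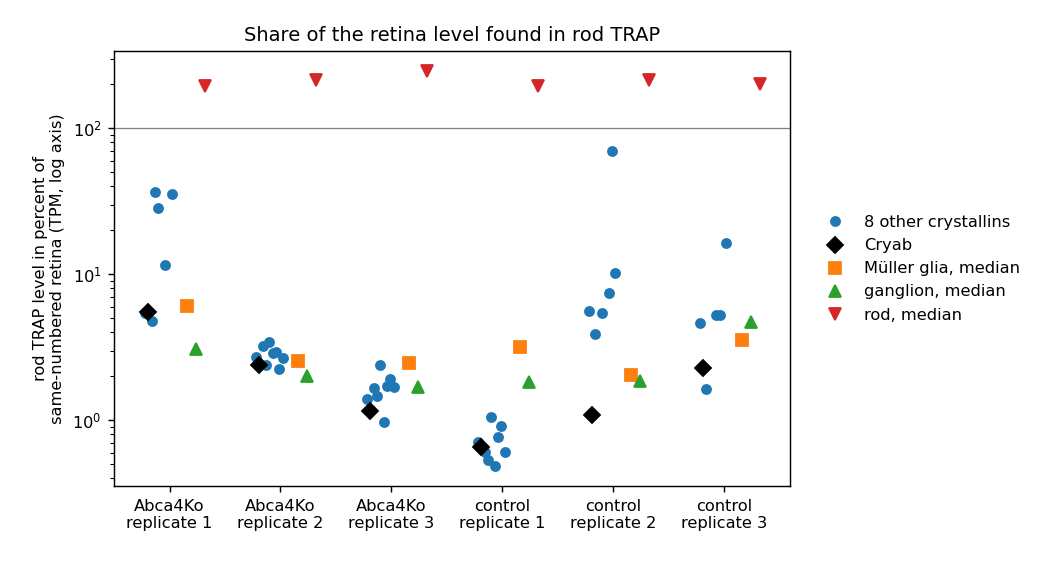
TPM in rod TRAP as a percent of TPM in the retina of the same number, on a log axis, for the 9 crystallins (Cryab as a black diamond, members at 0 in rod TRAP not drawn) and for the median of the Müller glia, ganglion cell and rod lists. In Abca4Ko 2, Abca4Ko 3 and control 1 the crystallins lie together between 0.482% and 3.43%, with the rod median at 194% to 246%, and the scatter in the other pairs comes with at most 63 scaled counts over all members.

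Relatives of the alpha crystallins were examined to see whether small heat shock proteins followed Cryab. Hspb6, which forms mixed complexes with alpha B crystallin, was the most abundant with 211.7 to 307.8 TPM in retina and 248.0 to 316.2 TPM in rod TRAP, so that its ranges in both fractions overlapped, unlike those of Cryab. Hspb8 had 8.0, 13.4 and 14.3 TPM in Abca4Ko retina and 13.2, 13.9 and 21.5 TPM in control retina, and Hspb1 3.7, 9.1 and 11.2 TPM against 11.9, 9.5 and 10.0 TPM. Hspb2, the neighbour of Cryab, had 1.6, 5.5 and 6.7 TPM against 9.1, 3.9 and 5.8 TPM, so that its highest retina was the highest for Cryab too, at 6.00 times the scaled count of the lowest. The same retina was highest for Hspb1, at 2.56 times the lowest. In scaled counts, Hspb2 had 25 and 25 in Abca4Ko retina 2 and 3 against 20 in control retina 3. Between genotypes 4 of the 7 genes were tested in retina and 1 in rod TRAP, and none was called. Between fractions Hspb6 was higher in rod TRAP in control mice (log2 fold change 0.36, SE 0.14, limma adjusted p = 0.0301) and did not pass in Abca4Ko mice (0.35, SE 0.18, adjusted p = 0.119). Hspb1, Hspb2 and Hspb8, with at most 8 scaled counts in rod TRAP, passed the filter through retina alone, and their lower calls are not counted.

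Other genes named after crystallins differed in how far they followed the members. Crygn, a gamma crystallin, had 3, 85 and 66 scaled counts in Abca4Ko retina and 157, 14 and 27 in control retina, so that the same libraries were highest and its highest retina held 52.3 times the lowest, against 38.7 times for Cryab. Crym, a ketimine reductase that binds thyroid hormone, had 62.7, 79.2 and 78 TPM in Abca4Ko retina and 52.9, 82.0 and 88.6 TPM in control retina, and at most 2.9 TPM in rod TRAP (log2 fold change -5.46 in control, SE 0.24, limma adjusted p = 1.18e-09). Its highest retina held 1.67 times the lowest. Cryz, a quinone reductase, reached 13.2 to 24.8 TPM in retina and Cryzl1 37.5 to 61.2 TPM, without a step between crystallin-rich and other retinas. Of the 9 genes on this list, 8 were tested in retina and 5 in rod TRAP, and none was called between genotypes. Between fractions 4 of 8 were called lower in control mice, where 39.3% of all genes were, and 4 of 7 in Abca4Ko mice, where 35.0% were, and Crygn was among the former after passing the filter through retina alone.

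Of the 14 regulators of crystallin genes, Pitx3, Sox1 and Maf were highest in the crystallin-rich retinas. They were picked after their values were seen, and Pitx3 and Sox1 had low counts. Pitx3, a homeobox gene of the lens, had 0, 24 and 34 scaled counts in Abca4Ko retina and 46, 0 and 0 in control retina. Sox1, a lens factor of the SOX family, had 0, 10 and 20 against 16, 1 and 1. Maf, a large Maf factor, had 110, 204 and 278 against 203, 176 and 125, a much smaller step. All 14 were tested between genotypes in retina and 9 in rod TRAP, and none was called. Pax6, which the lens needs and which amacrine and ganglion cells also make, had 87.0, 152.9 and 209.7 TPM in Abca4Ko retina and 118.1, 167.6 and 100.2 TPM in control retina, and Six3, a homeobox gene of lens and retina, had 40.7, 63.6 and 74.8 TPM against 46.9, 69.3 and 51.7 TPM. Hsf1, the heat shock factor, had 20.7 to 37.5 TPM in retina and 19.9 to 25.7 TPM in rod TRAP. None of these 3 genes was highest in control retina 1. Between fractions, 8 of 12 tested regulators were lower and 2 higher in rod TRAP in both genotypes, where 39.3% of all genes were lower in control and 35.0% in Abca4Ko mice, with Pax6 among the lower ones (log2 fold change -4.02, SE 0.17, limma adjusted p = 1.14e-09 in control). Hsf4 and Mafa, and in Abca4Ko mice Maf, were among the lower ones after passing the filter through retina alone. They had fewer than 10 scaled counts in rod TRAP, so the number lower is given as a description.

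A list of genes that mark reactive macroglia was set beside Cryab, which rises in stressed glia. Gfap had 16.1, 24.6 and 18.1 TPM in Abca4Ko retina and 38.1, 21.4 and 23.4 TPM in control retina, and Lcn2 19.7, 16.4 and 11.0 TPM against 24.6, 19.3 and 26.0 TPM. The list of 8 genes summed to between 73.3 TPM in Abca4Ko retina 1 and 135.5 TPM in control retina 1, which were also the lowest and the highest library for Cryab. Among the other retinas the orders differed. In Abca4Ko retina 3, with Cryab at 2483.8 TPM, the list stood at 99.9 TPM. Control retina 2 and 3, with Cryab at 138.2 and 200.7 TPM, had list sums of 112.5 and 116.2 TPM. In rod TRAP the list summed to between 57.2 and 95.7 TPM. In control mice Fgf2 and Stat3 were higher in rod TRAP (log2 fold changes 3.24 and 0.30), Lcn2 hardly differed (0.07) and Gfap was lower (-5.17). The sum can therefore not be read as message of macroglia alone. None of the 8 was called between genotypes in retina, with limma adjusted p between 0.409 and 0.877.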

How the data were processed

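RNA of retina lysate and of rod TRAP was converted with a low-input kit from 5 ng and 10 ng, and the submitters' processing notes name CASAVA 1.8.2, HISAT2, DESeq2, edgeR and GRCm39 without their roles. The authors deposited counts per gene that they had scaled to a common total within a fraction and rounded (a score, not raw counts), and TPM to 1 decimal, with 1 column per library. Depth is thus not shown, and no counting intervals are given. Groups and replicate numbers came from the labels.

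Scaled counts were rescaled by trimmed means of M values (trims 0.3 and 0.05) and fitted as log2(CPM + 0.5) with limma 3.58.1 (trend, robust) in R 4.3.3, over genes with at least 10 scaled counts in at least 3 of the libraries fitted. Each comparison used its own 6 libraries, and the interaction all 12. Tests were two-sided, with Benjamini-Hochberg adjustment over all genes tested and a threshold of 0.05, and the fit was tested on simulated data. Fold changes near 0 counts are understated on this scale. Alternatives changed scaling, pseudocount, filter, unit, moderation, replicate block and the libraries used.

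The members and the lists were chosen with earlier results of these data known. Named genes were the 9 members in every library, up to 4 genes of each list by mean TPM, and the 3 genes most like each member. Crygn, Cryge, Pitx3, Sox1, Maf, Mafa, Hsf4, Sox9, Rpe65 and the promoters printed were chosen after the values were seen. Deviations from group means of same-numbered rod TRAP and retina libraries correlated at 0.556, 0.2 and 0.518 in Abca4Ko and at 0.143, 0.145 and 0.157 in control, so the numbers were taken to pair the fractions within a genotype. Abca4Ko rod TRAP 2 correlated more with Abca4Ko retina 3 (0.289) than with retina 2, so the pairing is not settled there. Promoters and gene order came from RefSeq (GRCm38.p6), 8 of 9 members matched, and since the authors' build differs, positions belong to that build alone. Steps in Python 3.11.15 used numpy 2.4.6, pandas 2.3.3 and matplotlib 3.10.9.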

Additional observations from a re-analysis of the deposited data

How the results depend on the processing

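Of 537 alternative values of the members' fold changes, 475 kept their direction and their side of the threshold, and of 1462 alternative counts over the gene lists, 1374 stayed within 1.5 times.

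The number of members called moved as follows. For rod TRAP against retina in control mice, 1 was called, against 0 with a pseudocount of 2 CPM, 0 without a filter, 0 to 2 when 1 library was left out (2 without control retina 1) and 3 of 3 tested without the libraries of most lens message. In Abca4Ko mice, 1 was called, against 0 on log2(TPM + 1), 0 without a filter, 2 without trend or robust moderation, 6 with the replicate block, 0 without both libraries labelled Abca4Ko replicate 3, and 0 to 8 when 1 library was left out (8 without Abca4Ko retina 1, 0 without each of the others). Between genotypes in retina, 0 were called, against 1 (Cryaa) without the libraries of most lens message. These libraries were left out for values that the members track, so these 2 counts support nothing. The cause was not tested. The comparison of fractions in Abca4Ko could not be run without those libraries, since 1 library a fraction was left.

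Directions turned between genotypes. In rod TRAP, Crybb3 ran from -0.20 to 1.01 when 1 library was left out. In retina, the ranges were -0.31 to 4.66 for Cryaa, -0.32 to 2.28 for Cryab, -0.18 to 4.71 for Cryba1, -0.37 to 4.19 for Cryba2, -0.68 to 3.48 for Cryba4, -0.38 to 3.33 for Crybb1, -0.38 to 4.21 for Crybb2, -0.57 to 3.35 for Crybb3 and -0.47 to 4.12 for Crygs. Without the libraries of most lens message, the log2 fold changes in retina were -1.86 for Cryaa, -0.33 for Cryab, -0.52 for Cryba1, -1.08 for Cryba4, -0.41 for Crybb1, -1.27 for Crybb2, -0.53 for Crybb3 and -1.03 for Crygs, with Cryba2 under the filter.

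The replicate block changed no other count of members called. Between genotypes the numbers pair nothing: deviations of same-numbered libraries correlated at -0.017, 0.087 and -0.138 in rod TRAP and at 0.321, -0.268 and -0.514 in retina, and the block left 0 members called there. Scaled counts hide the depth, so counts under 10 cannot be given an error.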

Other observations

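In rod TRAP the gamma A to F crystallins amounted to 4.0% of the scaled counts of the 9 members in control 1, the same share as in its retina, and to 0.24% and 1.18% in Abca4Ko 2 and 3. Cryge and Crygf had scaled counts of 76 and 58 in control retina 1 and of at most 1 in the other retinas. The gamma A to F genes are close copies of each other, and how reads were split between them is not given in the sources used here.

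Abca4Ko retina 1, where Mlana and Tyrp1 stood at 0.8 and 1.0 TPM, was also the lowest retina for all 9 crystallins and for the vascular list (24 TPM, against up to 84.0 TPM). The Müller glia, amacrine, ganglion, horizontal, bipolar, microglia and macroglial reactivity lists were lowest in this library as well, while the blood list was not. The rod list was highest there with 108580 TPM, as was Rpe65 with 7.0 TPM.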
